A study of Mus musculus with 36 samples.

Results

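Neutrophils carry their antimicrobial proteins in granules that are filled one class after another while the cell matures in the bone marrow, and 6 genes of the later classes are described here in mouse blood 7 days after irradiation. Primary granules are filled at the promyelocyte stage, secondary (specific) granules at the myelocyte and metamyelocyte stages, and tertiary (gelatinase) granules later still, so that transcripts for granule proteins are abundant in immature neutrophils and fall as the cells approach release. Ltf encodes lactoferrin, which binds iron, Camp the cathelicidin antimicrobial peptide, and Ngp neutrophilic granule protein, a relative of the cathelicidins, and all of them mark secondary granules. Lcn2 encodes lipocalin 2, which binds bacterial siderophores and is made by other tissues as well, Mmp8 encodes neutrophil collagenase, and Mmp9 gelatinase B, the defining protease of tertiary granules. The members were all probes that carry one of these names in the array annotation, 7 probes for 6 of the 31093 gene names on the array.

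The study asked whether gene expression in blood can reveal the neutron component of a mixed exposure. Blood RNA of 36 male C57BL/6J mice, 8 to 10 weeks of age at irradiation, was depleted of globin transcripts and measured on Agilent arrays in a single colour, each mouse on its own array and 6 mice to a group. Controls were sham-irradiated, and the other groups received 3 Gy of x-rays, 3 Gy of a mixed field with 5, 15, or 25% neutrons (0.15, 0.45, or 0.75 Gy of neutrons), or 0.75 Gy of neutrons without x-rays, called neutron alone here. The labels give the last field as 100% neutron and the methods as 83%, because the source also emits photons. The values are log2 intensities relative to the median of all probes on the same array, so that 0 is the median probe and a difference of 1 is a 2-fold change. Levels of different genes cannot be compared on this scale, since each probe has its own brightness.

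All 6 genes passed the filters on background and on variation and were tested. Between 15569 and 21294 probes per array were well above background, and the median was lowest with neutron alone (16564) and highest in the controls (19920). The arrays were scanned in 4 sessions that largely followed the groups. In the first, 5 mice each of the controls and x-rays were scanned, in the second, 5 each at 5 and 15%, in the third, all mice at 25% and neutron alone, and in the fourth, the remaining mouse of each of the other 4 groups. For 25% and neutron alone against the controls or x-rays, session and exposure therefore cannot be told apart.

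The probes that measured the genes with the largest differences are shown because each gene rests on 1 probe of 60 bases, and for Camp on a pair that overlap. The Ltf probe lies at chr9:110942873-110942932 on the plus strand of mm9, the build of the array annotation, and starts at base 1974 of the transcript. The Ngp probe starts at base 399 of its transcript.
Ltf probe: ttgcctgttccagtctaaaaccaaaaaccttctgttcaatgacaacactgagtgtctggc
Ngp probe: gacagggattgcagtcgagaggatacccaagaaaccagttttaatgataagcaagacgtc
The brighter Camp probe, at chr9:109749911-109749970 on the minus strand of mm9, starts at base 519 of the transcript and the other at base 529, and of the 50 bases they share 48 are identical. The stretch below runs from base 11 to base 40 of the brighter probe and from the first base of the other, with the bases that differ in capitals (A16G and T20C, counted from the 5′ end of the brighter probe, whose base is given first).
Camp, brighter probe: cagccAgagTagtaggcctgccttggcctg
Camp, other probe: cagccGgagCagtaggcctgccttggcctg

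Relative to the array median, Ltf, Ngp, and Camp were called higher in every exposed group, although Camp with neutron alone was lower than the controls on a spike-in scale and the calls at 5 and 15% were lost with the scan session as a block. Lcn2, Mmp8, and Mmp9 were not called in any exposed group. With neutron alone, the calls of Ltf, Ngp, and Camp were lost without scaling, with another background correction (normexp), and in a single model over all arrays. Those of Ltf and Ngp with neutron alone were also lost on the spike-in scale and in the deposited expression table. With normexp, Ltf and Ngp were called only at 15%, and no member was called at 5 or 25%. A gene was called when its limma p was under 0.001 before adjustment and under 0.05 after Benjamini-Hochberg adjustment over the 15085 genes tested. By this rule 3 of the 6 genes were called higher after x-rays, where 12.9% of all genes were called higher, and again 3 of 6 at 5% (9.04% of all genes), 15% (12.6%), 25% (10.9%), and neutron alone (16.1%). None of the 6 was called lower, against 16.9, 14, 16.5, 13.9, and 20.5% of all genes in the same order, and genes called in either direction made up 29.8, 23.1, 29.1, 24.8, and 36.6%. The 5 comparisons share the same 6 control arrays. In whole blood, more cells of a type and more RNA per cell cannot be told apart.

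**Figure D1:**
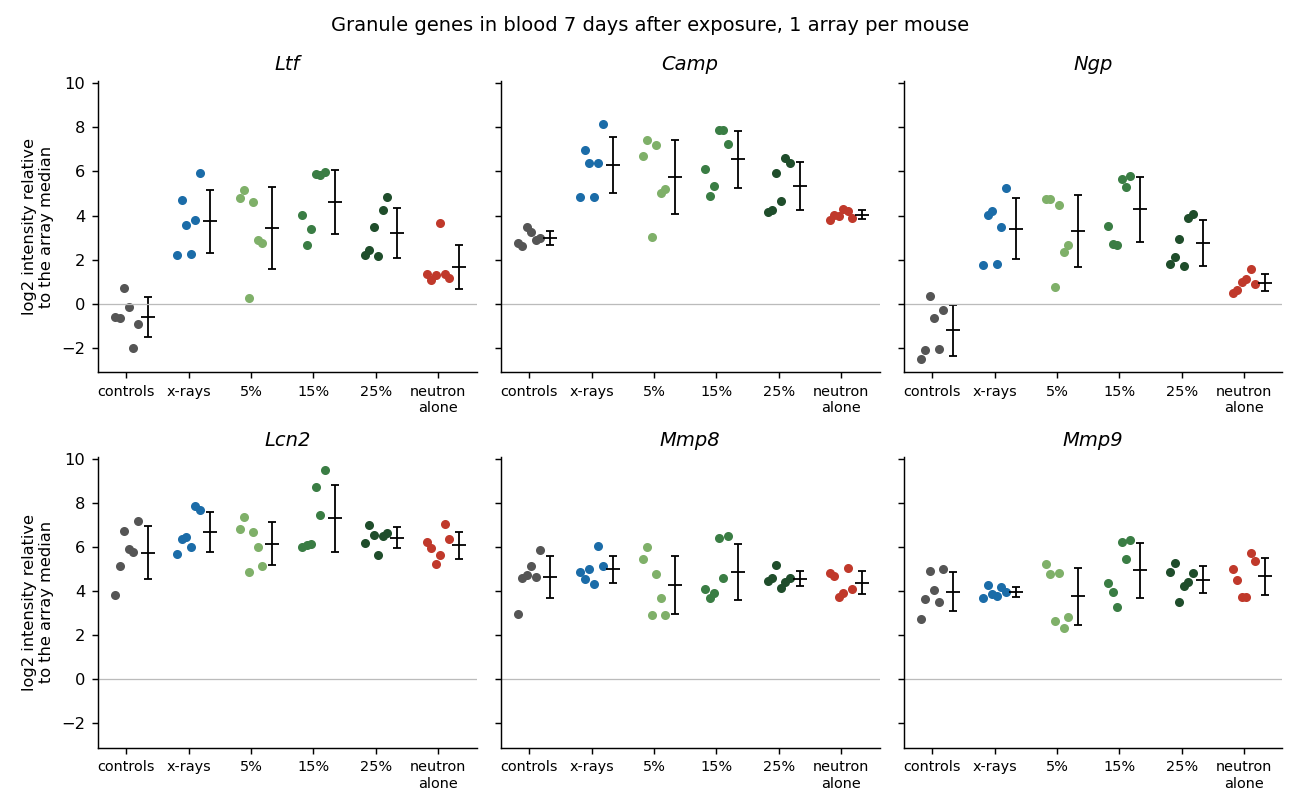
Log2 intensity of each granule gene relative to the array median (vertical axis) in the 6 groups (horizontal axis), with 1 point per mouse and the mean and SD of the 6 mice beside the points. Every x-ray, 15%, and 25% value of Ltf, Camp, and Ngp lay above all controls, while the groups of Lcn2, Mmp8, and Mmp9 overlapped.

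Ltf ranged from -2.02 to 0.70 in the controls, with a median of -0.63. After x-rays it ranged from 2.22 to 5.93 (median 3.69), and all 6 mice lay above every control. At 5% the range was 0.26 to 5.18 (median 3.76), at 15% it was 2.64 to 5.99 (4.93), and at 25% it was 2.15 to 4.82 (2.95). All mice at 15 and 25% were above the controls, whereas 1 of the 6 mice at 5%, replicate 3, lay among them. With neutron alone Ltf ranged from 1.08 to 3.67 with a median of 1.32, above all controls and with 1 mouse, replicate 4, far above the rest. The log2 difference from the controls was 4.35 ± 0.61 (SE, n = 6 per group) after x-rays, 4.03 ± 0.73 at 5%, 5.23 ± 0.62 at 15%, 3.83 ± 0.52 at 25%, and 2.26 ± 0.49 with neutron alone, or 20.5-, 16.3-, 37.6-, 14.2-, and 4.80-fold. The limma adjusted p lay between 2.18e-05 (15%) and 0.00139 (neutron alone). Without replicate 4 the difference of Ltf with neutron alone was 1.86, and without replicate 3 the difference at 5% was 4.66, both still called, but without control replicate 1, 2, or 6 Ltf was not called with neutron alone (differences of 2.20 to 2.26).

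Ngp followed the same order. Control values lay between -2.51 and 0.34 with a median of -1.36, x-ray values between 1.74 and 5.23 (3.75), and those at 5% between 0.77 and 4.77 (3.57). The corresponding values were 2.67 to 5.80 at 15% (4.41), 1.70 to 4.06 at 25% (2.504), and 0.48 to 1.55 with neutron alone (0.93). No exposed group overlapped the controls, although the lowest mouse with neutron alone was only just above the highest control. The log2 difference of Ngp from the controls was 4.62 ± 0.65 after x-rays, 4.51 ± 0.71 at 5%, 5.50 ± 0.67 at 15%, 3.96 ± 0.56 at 25%, and 2.16 ± 0.45 with neutron alone (24.6-, 22.7-, 45.1-, 15.5-, and 4.46-fold), with limma adjusted p values between 2.92e-05 and 0.00106.

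In the controls, both Ltf and Ngp were dim. On only 1 of 6 control arrays, replicate 3, were their spots well above background, against 6 of 6 after x-rays and at 15 and 25%, 5 of 6 (Ltf) and 6 of 6 (Ngp) at 5%, and 5 of 6 (Ltf) and 4 of 6 (Ngp) with neutron alone. Their folds are therefore less certain than their direction. When every value that was not well above background was raised to the lowest signal among the probes well above background on its own array, a step added after the data had been seen, the folds of Ltf were 15.4 after x-rays, 12.3, 28.3, and 10.7 at 5, 15, and 25%, and 3.61 with neutron alone. Those of Ngp became 13.04, 12.035, 23.9, 8.22, and 2.38, and both genes were still called in all 5 comparisons.

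Camp was well above background on all 36 arrays. Its values in the controls were close together, from 2.62 to 3.48 (median 2.92). They spread to 4.85 to 8.15 after x-rays (6.40), 3.01 to 7.43 at 5% (5.97), and 4.88 to 7.89 at 15% (6.67). At 25% Camp ranged from 4.18 to 6.62 (5.28), and with neutron alone from 3.81 to 4.30 (4.01). All mice exceeded all controls in each exposed group apart from replicate 3 at 5%, the mouse in which Ltf was also low. The log2 difference was 3.29 ± 0.48 after x-rays, 2.78 ± 0.61 at 5%, 3.57 ± 0.49 at 15%, 2.35 ± 0.42 at 25%, and 1.05 ± 0.17 with neutron alone, corresponding to 9.77-, 6.85-, 11.8-, 5.10-, and 2.07-fold, and the largest limma adjusted p was 0.00243, at 5%. At 5% the p of Camp was near the threshold, and without any of 7 of the 12 arrays it was no longer called, with differences from 2.44 to 3.33 when each array was left out in turn. The other Camp probe, fitted among all 21484 probes above background, differed by 2.75 ± 0.43 after x-rays, 1.89 ± 0.54 at 5%, 2.49 ± 0.43 at 15%, 1.45 ± 0.44 at 25%, and 1.24 ± 0.17 with neutron alone. Both probes gave the same direction, but the other one was not called at 5% (limma adjusted p = 0.0125) or at 25% (limma adjusted p = 0.0166), because its p before adjustment missed the threshold.

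**Figure D2:**
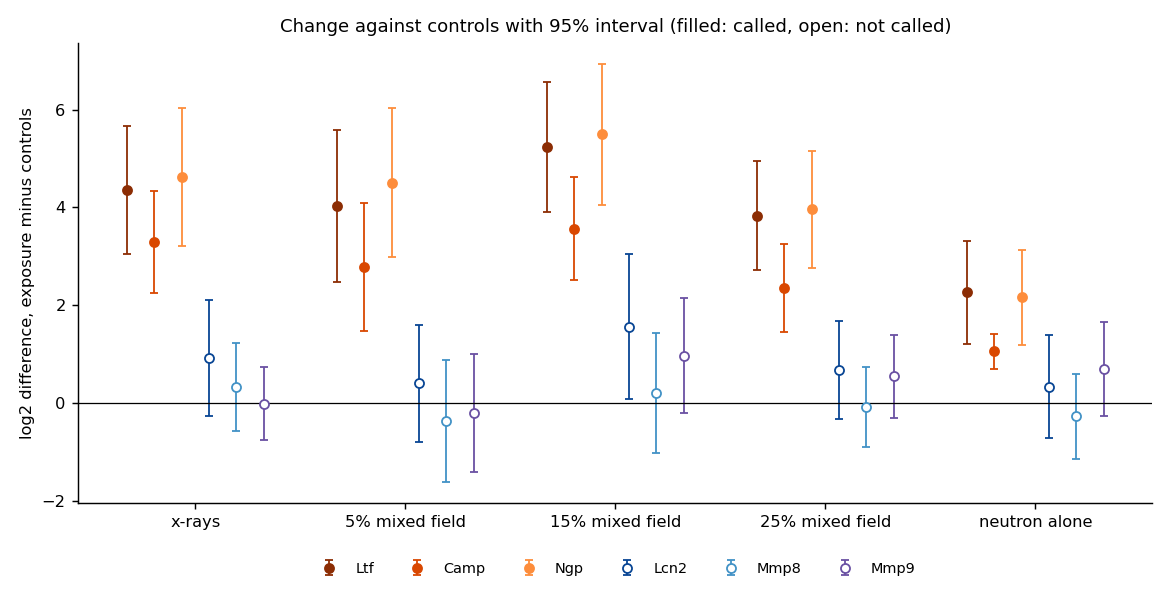
Log2 difference from the controls (vertical axis) for each granule gene in the 5 exposed groups (horizontal axis), with the 95% interval of the limma fit, where filled points were called and open points were not. Ltf, Ngp, and Camp were called in all 5 groups, with the smallest differences at neutron alone (2.26, 2.16, and 1.05), and the intervals of Mmp8 and Mmp9 included 0 in every group.

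Lcn2, which is also made in liver and epithelia, varied more among the controls than Camp, from 3.81 to 7.17 (median 5.84). It ranged from 5.67 to 7.88 after x-rays (6.41), 4.88 to 7.37 at 5% (6.35), and 5.99 to 9.51 at 15% (6.79). The values at 25% lay between 5.65 and 7.02 (6.55), and those with neutron alone between 5.26 and 7.06 (6.10). All of these groups overlapped the controls, and the log2 difference was 0.92, 0.41, 1.56, 0.67, and 0.33 in the same order. At 15% the 95% interval of the Lcn2 difference ran from 0.07 to 3.04 with 3 of 6 mice above all controls, and the limma adjusted p of 0.0758 missed the threshold.

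Mmp8 showed differences on both sides of 0. The controls ranged from 2.99 to 5.88 (median 4.68), and the group medians of the exposed mice lay between 4.24 at 5% and 4.93 after x-rays. Its log2 difference was 0.33 after x-rays, -0.36 at 5%, 0.20 at 15%, -0.09 at 25%, and -0.27 with neutron alone, and the 95% intervals reached no further than -1.61 to 1.44. Mmp9, measured by 10 spots of 1 probe, ranged from 2.74 to 5.02 in the controls (3.86) and had its lowest exposed median at 5% (3.804) and its highest at 15% (4.92). The difference of Mmp9 was -0.01 after x-rays with a 95% interval of -0.76 to 0.73, against -0.21 at 5%, 0.97 at 15%, 0.54 at 25%, and 0.70 with neutron alone. At 15%, where its interval ran from -0.22 to 2.15, 3 of 6 mice exceeded all controls. These intervals allow changes of Mmp9 and Lcn2 of several fold at 15%. In other groups they were also wide, reaching 2.10 for Lcn2 after x-rays and 1.66 for Mmp9 with neutron alone. A missing call therefore does not show that the genes were unchanged.

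The direction of the differences against the controls is relative to the median probe, and that median itself moved. When the arrays were centred on the Agilent spike-in controls instead, the median of all genes tested shifted by -1.20 after x-rays, -1.51 at 5%, -1.36 at 15%, -0.996 at 25%, and -2.05 with neutron alone. Ltf and Ngp were still called higher at 3 Gy in all 4 groups under that scale, with differences between 2.66 and 3.95 for Ltf and between 3.10 and 4.22 for Ngp. With neutron alone, however, the difference on the spike-in scale was 0.39 for Ltf (limma adjusted p = 0.395) and 0.28 for Ngp (adjusted p = 0.483), and Camp turned to -0.82 (adjusted p = 0.000259). Without any scaling, the differences with neutron alone were 1.33 for Ltf, 1.22 for Ngp, and 0.12 for Camp, none of them called. On normexp-corrected intensities, Camp with neutron alone was also below the controls at -0.18 (adjusted p = 0.705). The rise with neutron alone is thus a rise relative to other transcripts of the same sample, and its direction for Camp depended on the reference. In a single model over all 36 arrays none of the 3 genes was called with neutron alone, and in the deposited expression table Camp alone was. On normexp-corrected intensities Ltf and Ngp differed by 1.25 and 1.18 after x-rays and were called only at 15% (2.38 and 2.21).

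**Figure D3:**
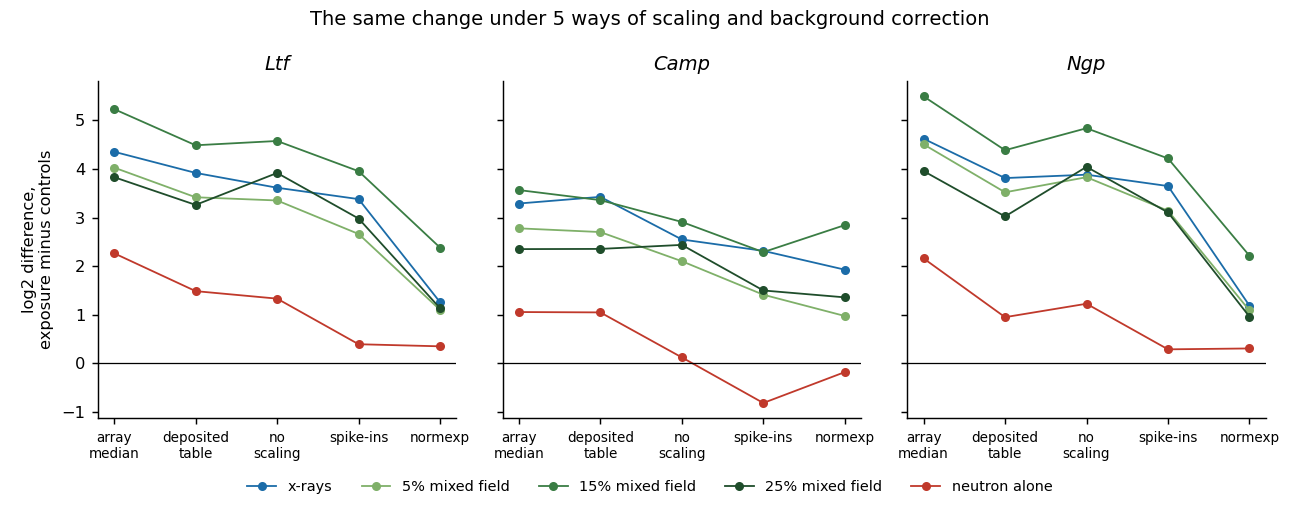
Log2 difference from the controls (vertical axis) of Ltf, Camp, and Ngp under 5 ways of scaling or background correction (horizontal axis), with a line for each exposed group. The 4 groups at 3 Gy stayed above 0 throughout, and Camp with neutron alone fell to -0.82 on the spike-in scale.

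Differences between a pair of genes on the same array do not depend on how arrays are centred. They are made from the values described above, so that they show the same result in another form and are not separate support. All 15 pairs of members were compared between the controls and each exposure by exact two-sided permutation tests, with Benjamini-Hochberg adjustment over the 75 tests, of which the smallest possible p was 0.00216. The difference changed for 12 of 15 pairs after x-rays and at 5 and 25%, for 13 at 15%, and for 9 with neutron alone. How often pairs of other genes change was not tested, so these counts do not set the members apart from all genes. The pairs also share genes and the same control arrays, and are not independent of each other. Ltf minus Mmp9 had a median of -4.25 in the controls and rose on average by 4.37 after x-rays and by 3.29 at 25% (adjusted exact p = 0.00427 for each), with no overlap between the groups. Ngp minus Lcn2 rose by 3.70 after x-rays, 3.29 at 25%, and 1.82 with neutron alone (adjusted exact p = 0.00427 for each).

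Camp rose less than Ltf and Ngp in this comparison, but that order depended on the background correction, and Ltf and Ngp were dim in the controls. On normexp-corrected intensities Camp differed from the controls by 1.93 after x-rays, more than Ltf (1.25) and Ngp (1.18), and by 2.84 at 15%, again more than both (2.38 and 2.21). On the processed signals Ltf gained 1.07 on Camp after x-rays (adjusted exact p = 0.00738), 1.48 at 25% (p = 0.00427), and 1.21 with neutron alone (p = 0.0101), while Ltf minus Ngp did not change detectably after x-rays (-0.27, adjusted exact p = 0.583), at 25% (-0.13, p = 0.788), or with neutron alone (0.11, p = 0.864). Of the 9 pairs of 1 of Ltf, Camp, and Ngp with 1 of Lcn2, Mmp8, and Mmp9, a grouping made after the values were seen, all 9 changed after x-rays and in each mixed field, and 6 changed with neutron alone. The pairs that did not were Ltf with Mmp9 (1.56, adjusted exact p = 0.0839), Camp with Lcn2 (0.72, p = 0.199), and Camp with Mmp9 (0.35, p = 0.503). These counts, too, were not compared with those for pairs of other genes.

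**Figure D4:**
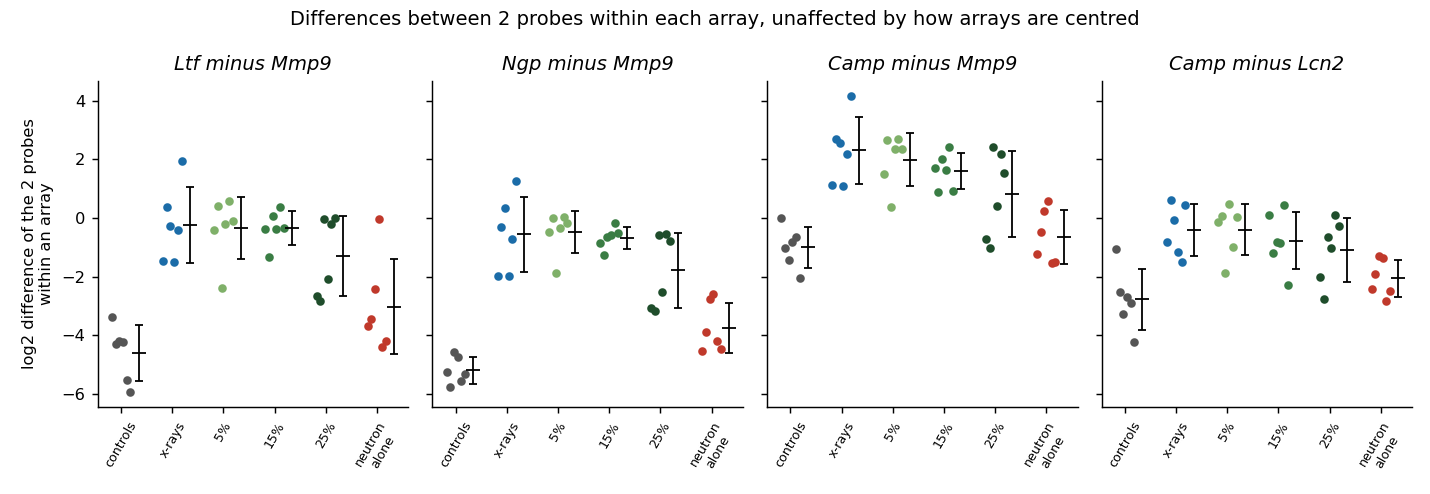
Log2 difference between the named pair of probes within each array (vertical axis) in the 6 groups (horizontal axis), with 1 point per mouse and the mean and SD beside the points. Only shifts between groups are meaningful, since the probes differ in brightness: Ltf minus Mmp9 rose by 4.37 after x-rays, and Camp minus Mmp9 by 0.35 with neutron alone.

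Among the exposures, the order of the mean levels was the same for Ltf, Camp, and Ngp: controls, neutron alone, 25%, 5%, x-rays, and 15%. By the other Camp probe x-rays (mean 5.36) lay above 15% (5.09). Exact permutation tests, two-sided, were run on neighbours in this order, adjusted over the 30 neighbour pairs of the 6 genes. The order was taken from the values tested, so that neighbours are by choice pairs with small differences. Controls and neutron alone differed for all of Ltf, Camp, and Ngp (adjusted exact p = 0.0162 for each), whereas neutron alone and 25% differed for Ngp (p = 0.0162) and not for Camp (p = 0.0649) or Ltf (p = 0.216). The steps from 25% to 5%, x-rays, and 15% were not detected as differences (adjusted exact p = 0.936 for each). For Lcn2 the order was controls, neutron alone, 5%, 25%, x-rays, and 15%, and no neighbours of Lcn2, Mmp8, or Mmp9 differed detectably (adjusted exact p of at least 0.936).

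Whether a neutron component could be seen at the same total dose was tested against the x-ray group directly. None of the 6 genes was called by limma at 5% (0% of all genes called), 15% (4.09%, of which 1.61% higher and 2.48% lower), or 25% (2.61%) against x-rays, and the smallest limma adjusted p among the members was 0.193, for Mmp9 at 15%. Ltf differed from x-rays by -0.33 at 5% with a 95% interval of -2.06 to 1.41, by 0.88 at 15% (-0.68 to 2.44), and by -0.52 at 25% (-1.92 to 0.87). For Ngp the intervals were -1.72 to 1.48, -0.67 to 2.42, and -1.999 to 0.67, and for Camp -2.09 to 1.06, -1.12 to 1.68, and -2.23 to 0.35, so that 15% could have been several fold higher than x-rays for Ltf and Ngp, and 25% several fold lower for Camp, within the spread between mice.

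Neutron alone, at 0.75 Gy against 3 Gy, was lower than x-rays for Camp and Ngp. The log2 difference was -2.24 ± 0.47 for Camp and -2.47 ± 0.52 for Ngp (limma adjusted p = 0.00385 and 0.00399), or 4.71-fold and 5.52-fold lower, and all 6 mice lay below every x-ray mouse for both genes. Over all genes, 12.9% were called in either direction in that comparison, 6.5% higher and 6.38% lower. Ltf differed by -2.09 ± 0.63, with 5 of 6 mice below every x-ray mouse, and was not called (limma adjusted p = 0.0241). Without x-ray replicate 5, neither Camp (-2.21, adjusted p = 0.00655) nor Ngp (-2.45, adjusted p = 0.00674) was called, and without x-ray replicate 3, or neutron alone replicates 1 or 2, only Camp was. By the other Camp probe the difference was -1.51 ± 0.42 (adjusted p = 0.0188), which was not called.

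The 25% field and neutron alone delivered the same neutron dose, with and without x-rays, and their arrays shared a scan session. Ngp was 3.48-fold lower with neutron alone (-1.80 ± 0.41, limma adjusted p = 0.00635), with all 6 mice below every mouse at 25%, in a comparison that called 11.4% of all genes, 4.02% higher and 7.36% lower. Ltf (-1.57 ± 0.54, adjusted p = 0.0464) and Camp (-1.30 ± 0.41, adjusted p = 0.0335) differed in the same direction and were not called. By the other Camp probe the difference was -0.21 ± 0.43. The call of Ngp was lost without any of 3 mice at 25% (replicates 3, 5, and 6) or any of 5 with neutron alone (replicates 1, 2, 3, 4, and 6), with differences between -2.01 and -1.54. Lcn2, Mmp8, and Mmp9 differed between these groups by -0.34, -0.18, and 0.16.

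The scan sessions left different amounts of information for each comparison. Within the first session, with 5 x-ray and 5 control arrays, Ltf differed by 4.18, Ngp by 4.57, and Camp by 3.01, and within the fourth, with 1 array of each, by 5.23, 4.89, and 4.67. With the session as a block, all 3 were called after x-rays with unchanged estimates. For 5% and 15%, only the fourth session held both groups, with 1 array each, where the difference from the control was 2.20 (5%) and 2.68 (15%) for Ltf, 2.00 and 2.33 for Ngp, and 1.53 and 1.84 for Camp. These were smaller than in the full comparison. The control of that session was the highest of the 6 for Ltf, Ngp, and Camp, and its 15% array was below the group mean for Ltf (3.38 against 4.62). None was called with the session as a block. Against the x-ray array of the fourth session, the 5% array differed by -3.03 for Ltf, -2.89 for Ngp, and -3.13 for Camp, and the 15% array by -2.55, -2.56, and -2.82. At 15% this is opposite in sign to the full comparison with x-rays. All 6 values lie outside the intervals given for that comparison, but those are for means of 6 mice, and single mice differ more widely. The x-ray array of the fourth session, replicate 6, was the highest of its group for Ltf, Ngp, and Camp. Each of the 6 values rests on 1 mouse a group. Without the 4 arrays of the fourth session, all of these calls remained except that of Camp at 5% (3.03, limma adjusted p = 0.00577).

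Among mice of the same group, all 6 genes varied together to different degrees. After the group means were subtracted, Ltf correlated with Camp at r = 0.92 (Spearman's rho 0.91, n = 36 arrays) and with Ngp at r = 0.89 (rho 0.88), and Camp with Ngp at r = 0.92 (rho 0.93). Lcn2 correlated with Mmp8 at r = 0.89 (rho 0.89) and with Mmp9 at r = 0.81 (rho 0.82), and Mmp8 with Mmp9 at r = 0.77 (rho 0.75). The other 9 pairs ranged from r = 0.49 (rho 0.49), for Ltf with Mmp9, to r = 0.78 (rho 0.80), for Ngp with Lcn2. All 15 were positive with adjusted permutation p of at most 0.00859 when deviations were permuted within groups, and for Ltf with Camp the p was 1e-05, the smallest that 100000 permutations can give. Without the 2 arrays farthest from the median, r was 0.89 for Ltf with Camp, 0.86 for Lcn2 with Mmp8, and 0.48 for Ltf with Mmp9. All values of an array share its RNA sample and its centring.

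**Figure D5:**
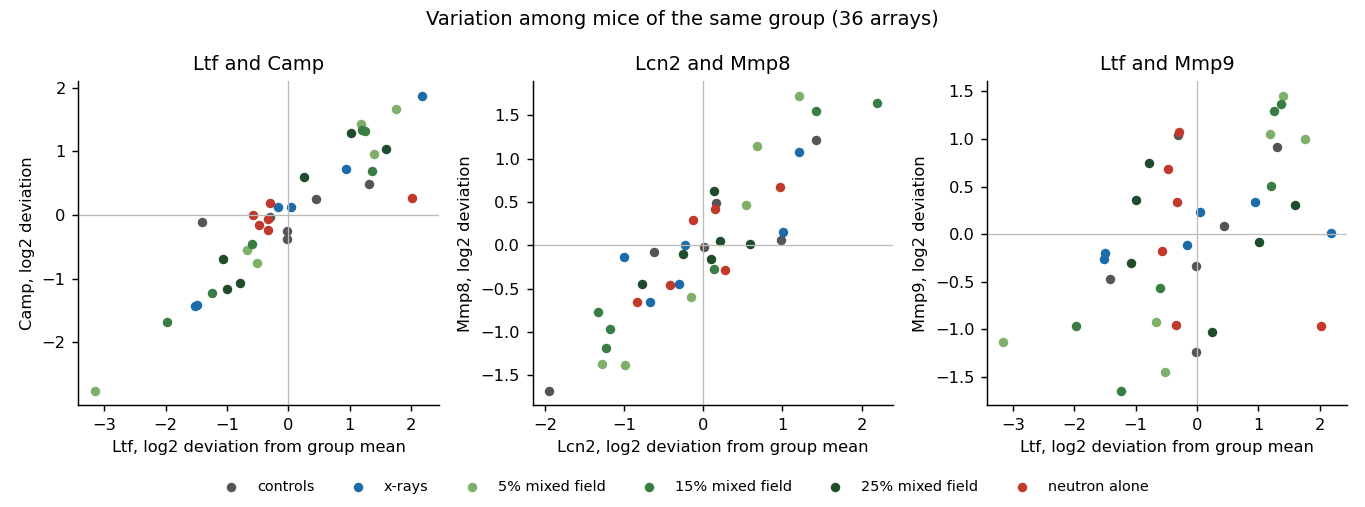
Log2 deviation of each mouse from its group mean for Ltf against Camp, Lcn2 against Mmp8, and Ltf against Mmp9 (both axes in log2 units, 36 arrays, coloured by group). The first 2 pairs lay along a line (r = 0.92 and 0.89), and Ltf and Mmp9 scattered more widely (r = 0.49).

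The genes most like the members over the 36 arrays, by Pearson's r with the mean of the standardised values of all 6, were Mapk13 (r = 0.90), which encodes a p38 kinase, Itgb2l (0.89), a relative of the leukocyte integrin beta chain, Epor (0.87), the erythropoietin receptor, and Mrgpra2b (0.87), followed by Chil1 (0.87), Stfa1 (0.86), a stefin that inhibits cysteine proteases, Mrgpra2a (0.86), and Ltb4r1 (0.85), a leukotriene receptor. Of these 8, Epor and Stfa1 were each called against the controls in 2 of 5 exposures and the others in none. For deviations from the group means, Mapk13 (0.90) and Itgb2l (0.89) again came first, before Retnlg (0.87), Asprv1 (0.86), Cxcr2 (0.84), Sorl1 (0.84), Pglyrp1 (0.84), and Cd101 (0.84). Cxcr2, a chemokine receptor of mature neutrophils, differed from the controls by between -0.16 and 0.55 and was called in none.

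The promoters of Ltf, Ngp, and Camp, which were called higher, are shown beside those of Lcn2 and Mmp8, which were not called. C/EBP epsilon and PU.1 are known regulators of granule genes, and the last 150 bases before the transcription start were searched on both strands for TTNNGNAA, a core C/EBP motif, and GAGGAA, a PU.1 core. Sequences and coordinates are from RefSeq on GRCm38.p6, not the mm9 build of the array, 5′ to 3′ on the strand of the gene, with matches in capitals. A promoter was at hand for 5 of the 6 genes, all but Mmp9.
Ltf, chr9:111019142-111019291 (+ strand): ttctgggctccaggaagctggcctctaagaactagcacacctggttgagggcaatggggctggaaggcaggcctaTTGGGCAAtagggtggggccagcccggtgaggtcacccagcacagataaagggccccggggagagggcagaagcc
Ngp, chr9:110419658-110419807 (+ strand): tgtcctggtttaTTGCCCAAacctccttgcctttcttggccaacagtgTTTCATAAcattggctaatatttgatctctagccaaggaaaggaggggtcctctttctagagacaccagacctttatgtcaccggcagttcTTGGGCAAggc
Camp, chr9:109849457-109849606 (- strand): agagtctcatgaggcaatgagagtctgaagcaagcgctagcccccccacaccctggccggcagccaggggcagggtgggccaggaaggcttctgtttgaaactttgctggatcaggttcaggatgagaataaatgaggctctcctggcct
Lcn2, chr2:32387740-32387889 (- strand): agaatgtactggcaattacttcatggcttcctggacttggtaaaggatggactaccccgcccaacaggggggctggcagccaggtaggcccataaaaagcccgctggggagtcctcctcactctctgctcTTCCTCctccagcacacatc
Mmp8, chr9:7558279-7558428 (+ strand): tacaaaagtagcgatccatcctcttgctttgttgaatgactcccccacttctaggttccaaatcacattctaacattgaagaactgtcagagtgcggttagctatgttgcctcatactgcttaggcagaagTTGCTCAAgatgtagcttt
TTNNGNAA occurred 1 time before Ltf, 3 times before Ngp, 1 time before Mmp8, and not before Camp or Lcn2, and GAGGAA 1 time, on the opposite strand, before Lcn2. Both Ltf and Ngp held the same 8 letters, TTGGGCAA, in the direction of transcription, 75 to 68 bases before the start of Ltf and 11 to 4 bases before that of Ngp. Among 32851 promoters, 22.7% held TTNNGNAA and 14.5% held GAGGAA in the same window, so that 3 of 5 and 1 of 5 are descriptions of a few sequences and not evidence of binding.

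Few other granule genes were called higher. Of 14 primary granule genes on the array, 10 were tested, with 1 called higher after x-rays, at 15 and 25%, and with neutron alone, and none called higher at 5%. These shares were near or below the 12.9, 9.04, 12.6, 10.9, and 16.1% of all genes called higher in the 5 exposures. The called gene was Elane, neutrophil elastase, with differences of 1.501, 1.62, 3.57, 1.75, and 2.20 in the order of x-rays, 5, 15, 25%, and neutron alone. Prtn3, proteinase 3, differed by 1.07 to 1.73 and Ctsg, cathepsin G, by 0.25 to 0.86 without a call, and Mpo, myeloperoxidase, was below background on too many arrays to be tested. The list median was 0.07 after x-rays and 0.43, 0.76, 0.51, and 0.52 in the other groups, against -0.11, -0.08, -0.02, -0.12, and -0.12 over all genes tested. Serpinb1a, an inhibitor of granule proteases named here after its values were seen, was lower in all 5 exposures (-2.01, -1.28, -1.54, -1.88, and -1.21 in the same order). It was called only at 25% and with neutron alone, where 13.9 and 20.5% of all genes were called lower.

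Of 26 further secondary and tertiary granule genes, 20 were tested and 2, 2, 2, 1, and 3 were called higher in the 5 exposures, shares near or below the 12.9, 9.04, 12.6, 10.9, and 16.1% of all genes called higher. Itgam, the integrin alpha chain stored in these granules, was called higher after x-rays (1.28), at 15% (2.87), at 25% (1.93), and with neutron alone (3.25), and differed by 2.01 at 5%. Chil3 (-0.22 to 0.35), Pglyrp1 (-0.41 to 0.36), a peptidoglycan recognition protein, Cd177 (-0.42 to 0.16), and Hp (-0.64 to 1.42), haptoglobin, were called in none. Orm1, an acute-phase protein, differed by -2.53 with neutron alone and by 3.50 at 25% without a call. Cyba and Cybb, the subunits of cytochrome b558, failed the filter on variation, and Olfm4 was below background. Hvcn1 and Vamp2, named after their values were seen, were called lower after x-rays (-1.90 and -1.27), at 5% (-2.33 and -1.34), and at 15% (-1.95 and -1.496), and Hvcn1 also at 25% (-1.96). Of all genes, 16.9, 14, 16.5, and 13.9% were called lower in those exposures.

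Few markers of mature neutrophils were called. Of 23 such genes on the array 21 were tested, 1, 0, 1, 1, and 1 were called higher, and 2, 1, 1, 2, and 1 lower. Of all genes, 12.9, 9.04, 12.6, 10.9, and 16.1% were called higher and 16.9, 14, 16.5, 13.9, and 20.5% lower. The shares of these markers were below both in every exposure. S100a8 and S100a9, the calprotectin subunits, differed by -0.63 to 0.34 and by 0.14 to 1.25, and Fpr1, a formyl peptide receptor, by -0.01 to 0.62, without a call. Csf3r, the receptor of granulocyte colony-stimulating factor, was called lower at 15% (-1.01), 25% (-0.97), and with neutron alone (-0.995). Mxd1, named after its values were seen, was the gene called higher after x-rays (1.53), at 15% (2.03), at 25% (1.35), and with neutron alone (1.70). The summed level of the 21 markers, on a log2 scale, was 11.68 to 14.02 in the controls and overlapped it in every exposed group, from 12.46 to 13.97 after x-rays to 12.49 to 14.98 at 15%.

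Transcription factors linked to granulocyte development, not all of which promote it, were tested in the same way. Of 15 tested factors none was called higher, and 5, 3, 2, 2, and 3 were called lower, against 16.9, 14, 16.5, 13.9, and 20.5% of all genes, so that the share was above that of all genes after x-rays and at 5% and near or below it elsewhere. Cebpe, the factor most tied to secondary granule genes, differed by -0.51 to 0.18, Cebpa by 0.21 to 1.30, Cebpd by -0.43 to -0.18, Gfi1 by -0.41 to 0.69, and Spi1, which encodes PU.1, by -0.45 to 0.04, all without a call. Irf8, which favours monocytes over neutrophils, was called lower after x-rays (-1.42). Fli1 (-1.87 to -1.09) and Sp1 (-1.24 to -0.94), named after their values were seen, were called lower in all 5 exposures.

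Of the receptors, partners, and inhibitors of the granule proteins, 10 of 16 were tested and 0, 1, 2, 1, and 1 were called higher. The shares over all genes were 12.9, 9.04, 12.6, 10.9, and 16.1%, and counts this small do not set the list apart from them. The calls were of Slc22a17 and of Stfa1, which is also counted below among the relatives of the members. Slc22a17, a receptor for lipocalin 2, was called higher at 5% (1.97), 15% (2.21), and with neutron alone (1.74). Timp2, an inhibitor of metalloproteinases, differed by 0.07 to 1.14 without a call, and Timp1 and Lrp2 were below background. Of 19 other metalloproteinases 6 were tested. Mmp13, collagenase 3, was called higher in all 5 exposures, by 3.83, 3.56, 3.86, 3.97, and 1.60. Mmp24 was called higher after x-rays (1.35) and Mmp11 lower after x-rays (-2.11), at 5% (-1.96), and at 15% (-1.78), while Mmp14, Mmp17, and Mmp19 were called in none.

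Markers of red cells and B cells were called in larger shares than all genes in every exposure. Over all genes, 12.9, 9.04, 12.6, 10.9, and 16.1% were called higher and 16.9, 14, 16.5, 13.9, and 20.5% lower. Of 12 red-cell markers 10, 11, 11, 9, and 12 were called higher, and their summed log2 level rose from 14.42 to 14.83 in the controls to 15.25 to 16.41 after x-rays and 15.68 to 16.39 with neutron alone. Of 11 B-cell markers 11 were called lower in each group at 3 Gy and 10 with neutron alone, with summed levels of 11.40 to 12.24 in the controls, 6.30 to 9.37 after x-rays, and 10.13 to 10.62 with neutron alone. T-cell markers were called lower for 4, 5, 5, 4, and 1 of 12, above the share of all genes except with neutron alone. Of 10 natural killer cell markers 1 was called higher, at 25%, and of 10 monocyte markers 2, with neutron alone. Of 12 platelet markers 4 were called higher at 15%, 5 at 25%, and 1 with neutron alone, above the share of all genes at 15 and 25% only. Of 11 eosinophil, basophil, and mast cell markers tested 1, 2, 1, 2, and 2 were called higher and 1 lower in each group, and Epx, the eosinophil peroxidase, was below background. The 1 or 2 calls in the natural killer, monocyte, and eosinophil, basophil, and mast cell lists are too few to set them apart from all genes. The part of these shifts in the differences of Ltf, Ngp, and Camp was not tested.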

How the data were processed

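For each of the 36 arrays the authors deposited scanner intensities from Agilent Feature Extraction 12.0.2, on a linear scale and, per the file headers, corrected for background within the array with no normalization between arrays. The series table that the authors deposited holds log2 values, filtered and, per the methods, median normalized, and it was used as an alternative only. Intensities were log2-transformed, non-uniform spots were left out, the remaining spots were averaged per probe, and arrays were centred on their median. Of 39429 probes, 21484 exceeded background in over 75% of arrays, and 17963 also differed at least 1.5-fold from their median on at least 20% of the arrays. The brightest probe of each name gave 15085 genes. Groups follow the sample titles. Fits used limma 3.58.1 in R 4.3.3 (with version 1.17.8 of data.table) on the 12 arrays of each comparison, 5 against controls, 4 against x-rays, and neutron alone against 25%, in place of the random variance t-test of the methods, which was an alternative. The fit was tested on simulated data. Sequences and figures used Python 3.11.15, numpy 2.4.6, and matplotlib 3.10.9.

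The members and the gene lists were chosen with earlier results of these data known. Genes named are the members, the 8 genes most correlated with their mean, listed genes with defining roles, and every other tested metalloproteinase, and exceptions are said to be named after their values were seen. Alternatives changed the scaling, background correction, filters, choice of probe, table, model, blocks, weights, test, and threshold, and left out each array in turn. Centring on 8 spike-in probes, no scaling, the other Camp probe, leaving out the fourth scan session, and raising dim values were added after the data had been seen. Precision rests on 6 arrays per group. Residuals of arrays with the same replicate number correlated at 0.037 on average over 90 pairs, against -0.0062 over 450 others. No pairing by number was visible on average, which does not exclude that some numbers paired mice.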

Additional observations from a re-analysis of the deposited data

Results flagged for a closer look

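Ltf with neutron alone had 1 mouse, replicate 4, far above the other 5, at 3.67 against 1.35 for the next, and the gap divided by the range of the group was 0.894. The 95% critical value of this ratio is passed by chance in about 1 in 20 groups, and this was the only gap past it in the 36 sets of 6 mice (6 genes in 6 groups). Camp was also highest in that mouse, with a gap of 0.1501 of the range, and Ngp was highest in replicate 5.

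Camp and Ngp differed between neutron alone and x-rays by -2.24 and -2.47 on the log2 scale, and Ngp between neutron alone and 25% by -1.80, each tested directly by limma and lower in all 6 mice. Neutron alone and x-ray arrays were scanned in different sessions, which cannot be told apart from the exposures, while neutron alone and 25% shared 1 session.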

How the results depend on the processing

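Against the controls, Ltf, Ngp, and Camp kept their direction in all 4 groups at 3 Gy under every alternative run, and the call of 3 of 6 genes was lost with normexp background correction at 5% (0 called) and 25% (0) and reduced to 1 after x-rays. At 5 and 15%, 0 genes were called with the slide or the scan session as a block, since 1 array of each group then carries the comparison. With neutron alone, 0 were called with normexp correction, without scaling, and in 1 model over 36 arrays, and 1 with the deposited expression table and with the slide as a random block, no slide holding both groups. Camp with neutron alone was -0.18 with normexp correction and -0.82 with spike-in centring. For neutron alone against x-rays (2 called), 0 were called with normexp correction, 1 with the other Camp probe and in the 36-array model, and 5 with spike-in centring. Leaving out each array gave 0 to 3. For neutron alone against 25% (1 called), 3 were called by the adjusted p alone, with spike-in centring, without scaling, and with the slide block, and 0 with 75th percentile scaling, centring on probes well above background, quantile normalization, normexp correction, and the 36-array model, or 0 to 1 when each array was left out. The causes of these changes were not tested.

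Signs of the genes that were not called changed more often. Lcn2 was -0.61 at 15% and -0.73 at 5% with the slide or session block, -0.065, -1.12, and -1.13 at 25%, 5%, and neutron alone with normexp correction, -0.18, -0.96, -1.54, and -0.055 at 25%, 5%, neutron alone, and x-rays with spike-in centring, and -0.27 and -0.60 at 5% and neutron alone without scaling. Mmp8 was -0.016 (15%) and -0.42 (x-rays) with normexp correction, -1.08 and -0.65 with spike-in centring, and -0.46 and -0.41 without scaling. It was -0.83 at 15% with the slide or session block, -0.23 after x-rays with the slide block, 0.044 and 0.020 at 25% with 75th percentile scaling and centring on probes well above background, and 0.00048 at 5% with array weights. Mmp9 was -0.31 at 15%, -0.31 at 25%, and -1.17 with neutron alone with spike-in centring, -0.069 and -0.50 at 25% and neutron alone with normexp correction, -0.23 with neutron alone without scaling, and -1.59 at 15% with the slide or session block. At 5% it was 0.56 with array weights and 0.26 without scan session 4, and after x-rays 0.33, 0.28, 0.31, 0.21, 0.013, and 0.17 with 75th percentile scaling, centring on probes well above background, quantile normalization, the deposited table, array weights, and without session 4. With each array left out, Lcn2 with neutron alone ranged from -0.056 to 0.62, Mmp8 from -0.13 to 0.45 at 15%, -0.42 to 0.15 at 25%, and -0.0066 to 0.57 after x-rays, and Mmp9 from -0.50 to 0.077 at 5% and -0.26 to 0.19 after x-rays.

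With the replicate number as a block the counts were 3 in each exposure against the controls, 0, 0, 0, and 2 against x-rays, and 1 for neutron alone against 25%, and under the replicate block Ltf, Ngp, and Camp kept each of their calls. A session block could not be fitted for 25% or neutron alone against the controls or x-rays. Low signal limits the folds of Ltf and Ngp in the controls.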

Other observations

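The genes most like each single member over the 36 arrays differed between the members. Closest to Ltf and to Ngp was Rab3il1 (r = 0.90 with each), and closest to Camp was Wwp2 (0.89). Lcn2 was most like Mapk13 (0.96), Mmp8 most like S100a8 (0.95), a calprotectin subunit of mature neutrophils, and Mmp9 most like an unnamed probe (0.91), followed by Pfkfb4 (0.91), an enzyme that regulates glycolysis. All correlations are over 36 arrays with the group differences included, and were not tested.

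Of 15 relatives of Lcn2, Camp, and Ltf on the array (lipocalins, cystatins and stefins, and transferrins) 10 were tested. None was called after x-rays or at 5%. Stfa1 was called higher at 15% (3.84) and 25% (2.90), and Cst3 (0.87) and Lcn6 (2.74) with neutron alone, the last pair named after their values were seen. Over all genes, 12.6% were called higher at 15%, 10.9% at 25%, and 16.1% with neutron alone.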
